A study of Homo sapiens with 6 samples.

Results

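A set of 10 genes of stress granules and of the DEAD-box helicase family was followed through 6 RNA sequencing libraries of K562, an established erythroleukaemia cell line. They are 7 genes for granule proteins (G3BP1, G3BP2, CAPRIN1, USP10, ATXN2, TIA1 and TIAL1) and 3 genes for helicases (DDX5, DDX17 and DDX3X), out of 33367 genes with a transcript in the tables. The set was chosen by measured values in part. G3BP2 and DDX5 were selected on their lower level in induced than in uninduced CDAN1 shRNA clones, and the others as their paralogs and partners. That comparison is therefore given below as a description, with no test for these genes. All 10 passed the filter on low counts, as did 14075 genes in all. The series asked what the loss of CDAN1 does to the transcriptome of these cells. CDAN1 encodes codanin-1, which binds the histone chaperone ASF1 and is mutated in a congenital dyserythropoietic anaemia.

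Stress granules are condensates of untranslated mRNA and RNA-binding proteins that gather when translation initiation stalls, for instance after phosphorylation of eIF2α. G3BP1 and G3BP2 form the RNA-binding core, CAPRIN1 binds them and favours assembly, and USP10 binds the same surface of G3BP and restrains it. TIA1 and TIAL1 carry prion-like domains and bind U-rich RNA, while ATXN2 binds the poly(A)-binding protein. DDX3X is an RNA helicase that acts in translation initiation and enters granules. DDX5 and DDX17 are largely nuclear helicases that act in transcription, splicing and microRNA processing. The libraries measure mRNA, not granules or protein.

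Each of 3 clones gave 1 library with doxycycline at 1 µg/ml and 1 without, both at day 4, and every clone was kept in puromycin at 2 µg/ml. The NT clone carried an inducible non-targeting shRNA, and clones c1 and c2 carried an inducible shRNA against CDAN1. The design's controls are thus uninduced NT, induced NT, uninduced c1 and uninduced c2, and the knockdown libraries are induced c1 and induced c2. Each condition was a single library of a single clone, so differences between clones and between shRNA constructs cannot be told apart. The p-values below therefore reflect only how far these few libraries spread.

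The libraries held 28318555 to 32352246 estimated reads. Values are read counts relative to the library total, scaled by TMM (CPM), unless TPM, which corrects for transcript length, is named. CDAN1 itself stood at 62.5 CPM in uninduced NT and 70.2 in induced NT, at 37.0 and 17.0 in uninduced and induced c1, and at 55.4 and 29.8 in uninduced and induced c2. Both induced CDAN1 shRNA libraries were below all 4 controls, and uninduced c1 was the lowest control. Fetal and embryonic globin mRNA was abundant (HBG2 at 3865 to 5167 CPM), GATA1 stood at 313 to 363 CPM and EPOR at 24.5 to 46.1, while MPO, ALB, CD3E and CD14 stayed at or under 0.6 CPM. EPCAM (24.0 to 55.1 CPM), PECAM1 (16.3 to 42.2) and COL1A1 (3.71 to 10.6) were detected at higher levels.

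The sequences below locate the transcript features that the results refer to. A 7-base word, CTCCATA, lies in the 3′ UTR of G3BP2 at chr4:75644688-75644694 (minus strand) and of CAPRIN1 at chr11:34099667-34099673 (plus strand), on GRCh38 with GENCODE 29 annotation. It overlaps the word ACTCCAT in 6 bases. Both words came from an earlier analysis of these libraries, in which they were picked from the response of clone c2. The word is in capitals in each site.
G3BP2 3′ UTR site: agatttagtagCTCCATAtctaagatttt
CAPRIN1 3′ UTR site: gtgataataatCTCCATAgttatttgaag
The site begins at base 736 of the 3′ UTR in both main G3BP2 transcripts and at base 300 in CAPRIN1-201 and CAPRIN1-212. CAPRIN1-209 lacks it. On the given strand, 1 of the words occurs in the annotated 3′ UTRs of 20.0% of the 12928 tested genes that have one. The share was 40.0% of the 10 genes of the set (4 genes). DDX5, DDX17, G3BP1, DDX3X, TIA1 and USP10 have neither word in a 3′ UTR. TIAL1 has one, in a stretch of TIAL1-203 that lies beyond the shorter version the tables used, and ATXN2 has one in a transcript that was not used here.

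DDX5 and DDX17 share a transcript feature. Each has an annotated transcript that keeps intron 11 of 12, at chr17:64500774-64502009 (1236 bases, minus strand) in DDX5 and at chr22:38488116-38492055 (3940 bases, minus strand) in DDX17, on GRCh38. The ends of those introns are given below, with the first and last 2 intron bases in capitals.
DDX5 intron 11 start: ccagagggctagGTtagtacaaactc
DDX17 intron 11 start: cccgtgggctagGTttgtatagatag
DDX5 intron 11 end: gcaacaccttacAGatgtggaagatg
DDX17 intron 11 end: cattgacgtggaAGatgtggaagatg
The 12 bases after the intron are the same letters in both genes.

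By length-scaled level (mean TPM over the 6 libraries), DDX5 stood first at 156.3, followed by CAPRIN1 at 146.9, DDX3X at 124.7, G3BP1 at 120.1, DDX17 at 111.7, TIAL1 at 104.3, USP10 at 95.7, G3BP2 at 63.4, TIA1 at 55.7 and ATXN2 at 38.6. Neighbours from DDX5 to USP10 overlapped in their ranges over libraries, DDX5 alone spanning 110.9 to 213.4 TPM. G3BP2 (49.2 to 82.1 TPM) overlapped TIA1 (51.2 to 60.7), and ATXN2 (35.0 to 41.5) lay below both. Across libraries DDX5 varied most, with a range of 1.12 on the log2 CPM scale, followed by G3BP2 at 0.86. CAPRIN1 spanned 0.40, and TIA1, TIAL1 and ATXN2 spanned 0.18 each.

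**Figure D1:**
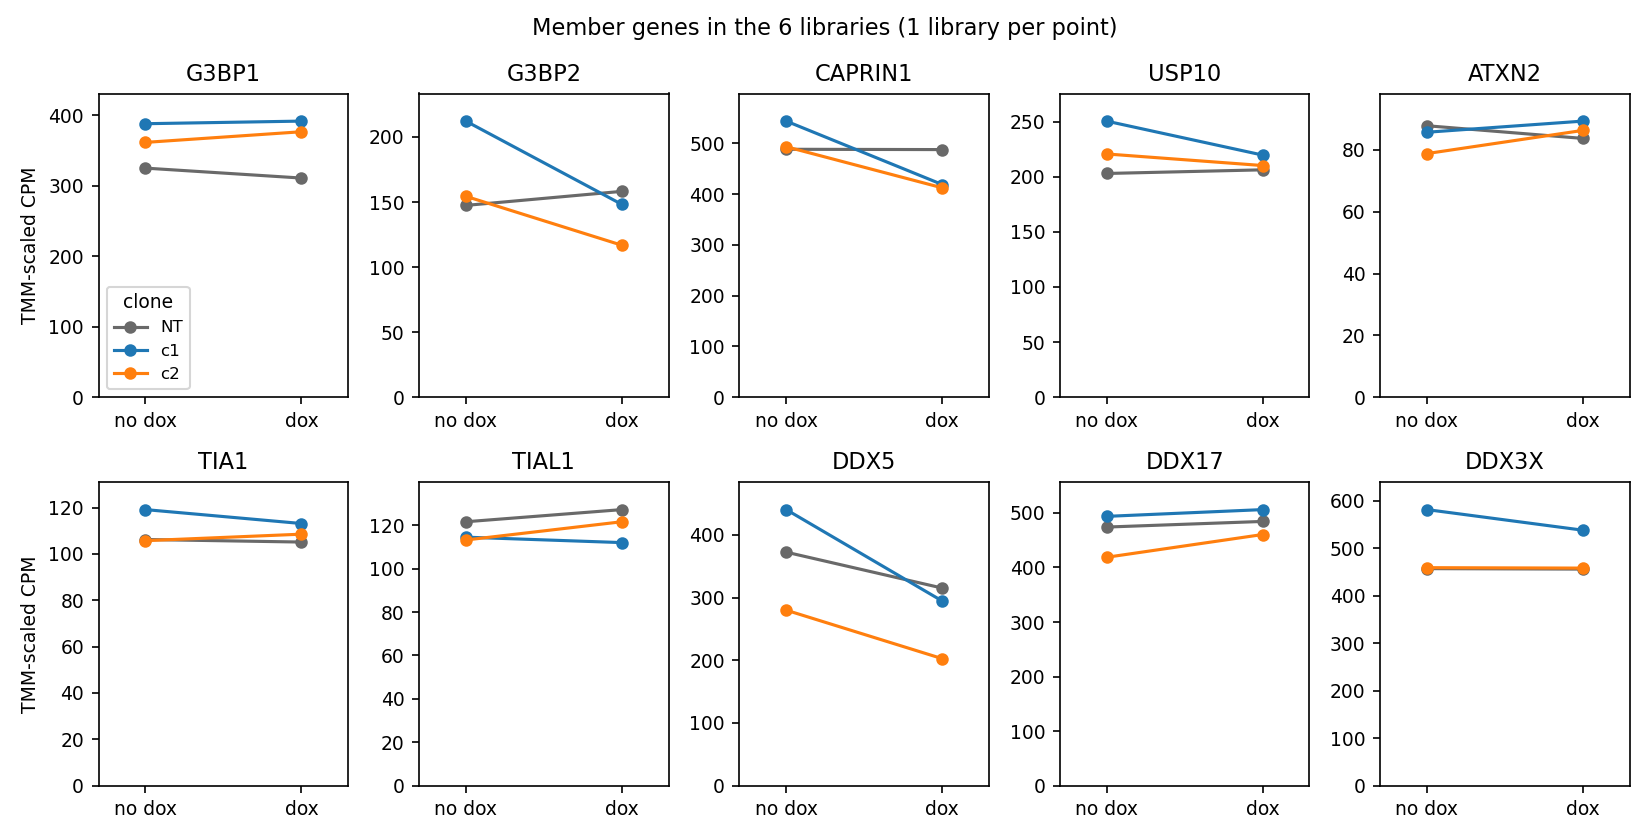
TMM-scaled CPM of the 10 genes without (no dox) and with doxycycline, 1 panel per gene, 1 point per library and 1 line per clone. DDX5, G3BP2 and CAPRIN1 are lower with doxycycline in c1 and c2, while the lines of G3BP1, TIA1, TIAL1, ATXN2 and DDX17 are close to level.

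G3BP2, the less abundant paralog of the granule scaffold (ENSG00000138757, chr4:75642782-75724525), stood at 147.4 CPM in uninduced NT and 158.2 in induced NT. It stood at 212.2 in uninduced c1 and 148.2 in induced c1, and at 154.4 in uninduced c2 and 116.8 in induced c2. Uninduced c1 was the highest of the 6 libraries and induced c2 the lowest, and induced c1 lay within the range of the controls. The induced library held 69.8% of the uninduced level in c1 (95% counting interval 67.2% to 72.6%) and 75.7% in c2 (72.4% to 79.1%), against 107.4% in NT. These intervals cover counting error only, and each response sets 1 library against 1. In bulk samples, fewer cells of a type and less RNA per cell cannot be told apart.

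G3BP1 (ENSG00000145907, chr5:151771045-151812785), the major paralog, showed no such pattern. It stood at 325.0 and 310.9 CPM in uninduced and induced NT, at 388.0 and 391.7 in c1, and at 361.5 and 376.6 in c2. The clones separated and the doxycycline states did not. In log2 terms its response was −0.06 in NT, 0.01 in c1 and 0.06 in c2.

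The ratio of G3BP1 to G3BP2 in TPM was 1.81 in uninduced and 1.61 in induced NT, 1.51 and 2.15 in c1, and 2.04 and 2.55 in c2. It was thus higher with doxycycline in both CDAN1 shRNA clones and lower in NT. The log2 ratio moved by 0.51 in c1, 0.32 in c2 and −0.17 in NT. On estimated counts the c2 value was 0.46, so its size depends on the transcript length correction. Uninduced c2 already had a higher ratio than either NT library.

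CAPRIN1 (ENSG00000135387, chr11:34051683-34101156), the G3BP partner that favours assembly, stood at 488.3 CPM in uninduced NT and 487.7 in induced NT, at 543.8 and 418.9 in c1, and at 493.3 and 412.4 in c2. It was the 1 member of the 10 whose 2 induced CDAN1 shRNA libraries were both below all 4 controls, and none had both above. Among all tested genes, 5.19% lay below the controls in this way and 4.37% above. Its induced level was 77.0% of the uninduced level in c1 (75.2% to 78.9%) and 83.6% in c2 (81.6% to 85.6%), against 99.9% in NT. CAPRIN1-201 and CAPRIN1-212, which hold the word, stood at 76.0% and 82.8% of their uninduced TPM in c1 and at 81.6% and 89.0% in c2. CAPRIN1-209, which lacks it, stood at 84.1% in c1 and 88.8% in c2. In NT, CAPRIN1-201, CAPRIN1-212 and CAPRIN1-209 stood at 101.1%, 106.4% and 96.5%. Set against NT, CAPRIN1-212 was thus reduced more than CAPRIN1-209. The word was picked from the c2 response, and its part in these values was not tested.

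USP10, the deubiquitinase that competes with CAPRIN1 for G3BP (ENSG00000103194, chr16:84699978-84779922), stood at 202.9 and 206.2 CPM in NT, at 250.4 and 219.6 in c1, and at 220.6 and 210.1 in c2, uninduced before induced. Its 2 induced CDAN1 shRNA libraries lay within the controls' range. ATXN2 (ENSG00000204842, chr12:111443485-111599676) ranged from 78.8 CPM in uninduced c2 to 89.3 in induced c1, with no separation of clones or states.

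TIA1 (ENSG00000116001, chr2:70209444-70248660) ranged from 105.1 CPM in induced NT to 119.1 in uninduced c1. Its paralog TIAL1 (ENSG00000151923, chr10:119571802-119597029) ranged from 112.0 in induced c1 to 127.2 in induced NT. The ratio of TIA1 to TIAL1 in TPM lay between 0.538 and 0.564 in 5 libraries and at 0.474 in induced c2. On estimated counts it was 0.874 and 0.826 in uninduced and induced NT, 1.041 and 1.009 in c1, and 0.934 and 0.892 in c2. The clones thus separated on that scale. In TPM of protein-coding transcripts alone it was 0.668 and 0.652 in c1 and 0.533 to 0.566 in NT and c2. On those transcripts the c2 change turned from −0.19 to 0.04 in log2. TIA1 reads were divided among similar coding transcripts, and the share of TIA1-205 moved between 13.2% and 30.1% with no order by clone or state.

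DDX5 (ENSG00000108654, chr17:64499616-64508199), also called p68, stood at 372.6 CPM in uninduced NT and 315.3 in induced NT, at 440.5 and 294.7 in c1, and at 280.0 and 202.7 in c2. It was lower with doxycycline in all 3 clones, NT included. The induced level was 84.6% of the uninduced level in NT, 66.9% in c1 (65.1% to 68.7%) and 72.4% in c2 (70.0% to 74.8%). Induced c1 lay between uninduced c2 and induced NT, so the induced CDAN1 shRNA libraries overlapped the controls. In TPM, DDX5 stood at 170.8 and 160.1 in NT, 213.4 and 142.4 in c1, and 139.8 and 110.9 in c2. The decreases in NT and c2 were smaller on that scale, so their size depends on the transcript length correction.

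DDX17 (ENSG00000100201, chr22:38483440-38507660), the p72 paralog, stood at 474.1 and 484.4 CPM in NT, at 493.7 and 506.1 in c1, and at 418.7 and 460.4 in c2, slightly higher with doxycycline in each clone. The ratio of DDX5 to DDX17 in TPM was 1.70 in uninduced and 1.39 in induced NT, 1.88 and 1.15 in c1, and 1.31 and 1.005 in c2. It was lower with doxycycline in every clone, by log2 values of −0.30 in NT, −0.71 in c1 and −0.38 in c2. On estimated counts these were −0.27, −0.61 and −0.60.

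**Figure D2:**
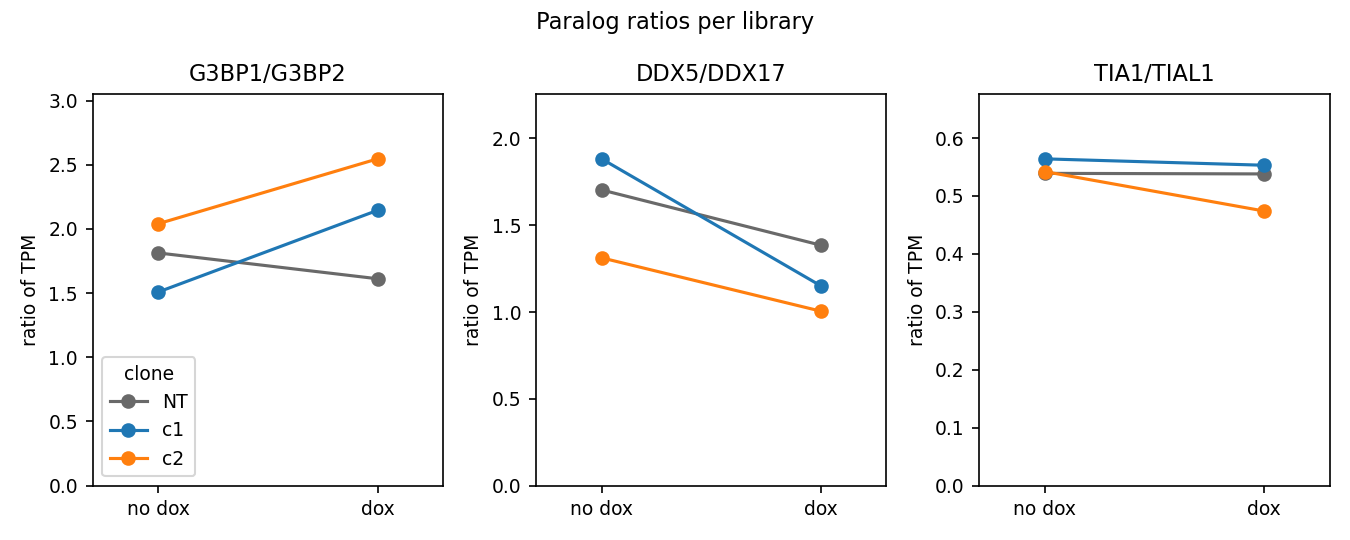
Ratio of TPM of each paralog pair without and with doxycycline, 1 point per library and 1 line per clone, each axis starting at 0. G3BP1/G3BP2 is higher with doxycycline in c1 and c2 and lower in NT, DDX5/DDX17 is lower in all 3 clones, and TIA1/TIAL1 stays between 0.474 and 0.564.

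DDX3X (ENSG00000215301, chrX:41333284-41364472) stood at 457.1 and 456.1 CPM in NT, at 581.4 and 538.0 in c1, and at 459.1 and 458.2 in c2. The c1 libraries were higher than the other 4, which lay within a few CPM of each other. In TPM it stood at 108.5 and 114.7 in NT, 137.7 and 137.2 in c1, and 129.2 and 120.6 in c2. On that scale c1 was again highest, but c2 lay above NT. The deposited lengths of DDX3X-201 and DDX3X-203 (5334 and 2349 bases) differ from those in GENCODE 29 (4632 and 4786).

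Over the 10 genes, the median log2 response was −0.002 in NT, −0.094 in c1 and 0.017 in c2, beside −0.002, −0.014 and −0.001 over all tested genes. A response under −0.25, a mark set with the values known, was reached by 3 of the 10 in c1 and the same number in c2 (G3BP2, CAPRIN1 and DDX5) and by 0 in NT, beside 17.5%, 12% and 14.5% of all genes. DDX5 in NT fell just short of the mark (−0.241) and CAPRIN1 in c2 just past it (−0.258), so these counts depend on where it was set. G3BP2 and DDX5 were selected on these responses, so the counts are a description only. The percentile of the response among all genes was 7.0 in c1 and 7.1 in c2 for G3BP2. It was 5.9 and 5.8 for DDX5, and 10.5 and 11.6 for CAPRIN1.

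With the clone as a replicate block, edgeR gave induced against uninduced log2 values of −0.52 ± 0.06 (SE) for DDX5, −0.46 ± 0.07 for G3BP2, −0.32 ± 0.06 for CAPRIN1 and −0.13 ± 0.06 for USP10. The other 6 lay within 0.1 of 0. These values chose the set and support nothing. That fit called 1.00% of all genes (141 of 14075), and 0 with a transcript length correction or with unmatched transcripts kept. Unblocked, the edgeR quasi-likelihood fit made calls in 0% of genes for induced against uninduced clones (207 at an unadjusted p under 0.05, DESeq2 2, voom 0), 0% for knockdown against all controls (322, DESeq2 22, voom 0), and 0% for the response in c1 and c2 set against that in NT (79, DESeq2 5, voom 0). The latter fit gave −0.57 ± 0.36 for G3BP2, −0.32 ± 0.15 for CAPRIN1 and −0.29 ± 0.51 for DDX5. Its SE also takes in the differences between c1 and c2. With the replicate block the same difference was −0.563 ± 0.113 for G3BP2, −0.315 ± 0.106 for CAPRIN1 and −0.283 ± 0.107 for DDX5. The NT response in it is 1 library against 1. These values share libraries with the contrast that chose the set and were not tested.

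**Figure D3:**
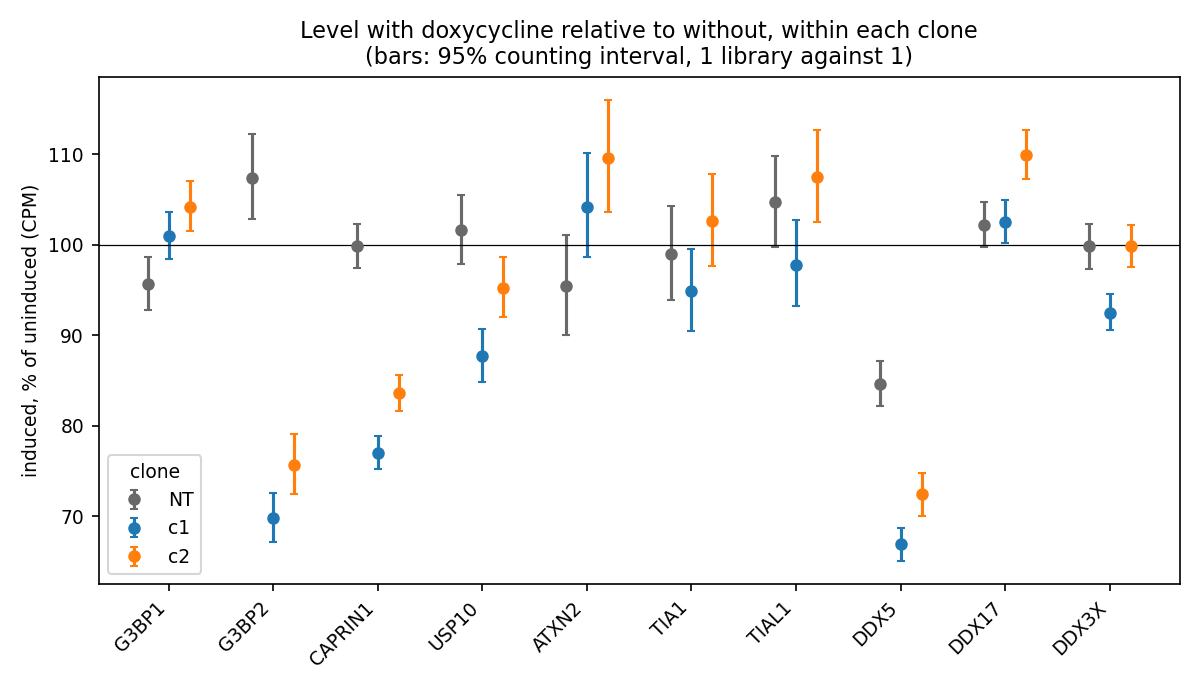
Induced level as a percentage of the uninduced level within each clone for the 10 genes, with 95% counting intervals (1 library against 1, no replicate error). G3BP2 (69.8% and 75.7%), CAPRIN1 (77.0% and 83.6%) and DDX5 (66.9% and 72.4%) lie lowest in c1 and c2, and in NT DDX5 alone is below 95%.

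Uninduced c1 was the highest of the 6 libraries for 6 of the 10 genes (G3BP2, CAPRIN1, USP10, TIA1, DDX5 and DDX3X), beside 22.0% of all tested genes. G3BP2 and DDX5 were selected on a contrast that includes this library. The c1 responses of these genes start from that library. The c2 pair, which does not include it, gave the percentages above.

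The clones were then compared over both doxycycline states, 2 libraries against 2. For c1 or c2 against NT, 1 of the 2 shRNA libraries is the knockdown library, and the main fit has no knockdown term. A difference that comes with knockdown thus enters those folds. With a knockdown term, G3BP2 in c1 against NT went from 0.211 to 0.498, and both G3BP1 calls against NT were lost. The DDX3X call for c1 against NT held. The fold between clones is orthogonal to the induction contrast, but its error is not. The 2 residual degrees of freedom are the clones' differences in doxycycline response, which the values that chose G3BP2 and DDX5 enter. The p-values of those genes are therefore not independent of their selection. G3BP1 and DDX3X were higher in c1 than in NT, G3BP1 was also higher in c2 than in NT, and DDX5 was lower in c2 than in either other clone. G3BP2 and CAPRIN1 did not pass the test in any clone comparison at the main settings.

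For G3BP1, the log2 fold change was 0.29 ± 0.05 (SE, edgeR adjusted p = 0.00601) for c1 against NT and 0.22 ± 0.05 (edgeR adjusted p = 0.0249) for c2 against NT. All 4 CDAN1 shRNA libraries were above both NT libraries. Both calls were lost with a transcript length correction (edgeR adjusted p = 0.0562 and 0.130), and the first also without induced NT (0.0576). The c2 call was lost without either NT library or either c2 library (edgeR adjusted p = 0.0536 to 0.271).

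DDX3X was higher in c1 than in NT (0.29 ± 0.05, edgeR adjusted p = 0.0059) and lower in c2 than in c1 (−0.29 ± 0.05, edgeR adjusted p = 0.00617). The first call held in all 8 other settings and all 6 fits without 1 library. The second was lost without uninduced c2 (edgeR adjusted p = 0.0952), without induced c2 (0.0509) and with the length correction (0.0512). In c2 against NT the difference was 0.01 ± 0.05, and 0.106 with the length correction, not called in either fit.

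DDX5 was lower in c2 than in NT (−0.53 ± 0.08, edgeR adjusted p = 0.00356) and than in c1 (−0.60 ± 0.08, edgeR adjusted p = 0.00152). DDX5 was selected on responses that enter the error of this test, so these p-values are not independent of its selection. Both c2 libraries lay below both NT and both c1 libraries. DDX17 was lower in c2 than in c1 by a smaller amount (−0.19 ± 0.05, edgeR adjusted p = 0.0324), a call lost without uninduced c1, uninduced c2 or induced c2 (edgeR adjusted p = 0.0911, 0.327 and 0.101). Without a doxycycline term, both DDX5 calls and the DDX17 call were lost (edgeR adjusted p = 0.140, 0.0751 and 0.0766).

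G3BP2 gave −0.41 ± 0.13 for c2 against c1 and did not pass the test (edgeR adjusted p = 0.0545). It did pass with no filter on low counts (edgeR adjusted p = 0.00799), with a knockdown term (0.00141), and without uninduced NT (0.00134), induced NT (0.00147) or induced c1 (0.0348). Its SE went from 0.13 to 0.06 without uninduced NT and 0.07 without induced NT. Against NT it gave 0.21 ± 0.13 in c1 and −0.20 ± 0.13 in c2, neither called. It was called at 0.50 in c1 without induced NT (edgeR adjusted p = 0.00453) and at −0.47 in c2 without uninduced NT (0.00588), where CAPRIN1 was called as well (−0.27, edgeR adjusted p = 0.0491). USP10 was just outside the threshold for c1 against NT (0.20 ± 0.06, edgeR adjusted p = 0.0501), and inside it with no filter (0.0391), with a knockdown term (0.0491) or without induced c1 (0.0212). Among the 10 genes, 2 were higher and 0 lower in c1 than in NT, beside 27.8% of all genes called in either direction. In c2 against NT, 1 was higher and 1 lower, beside 21.1%. In c2 against c1, 0 were higher and 3 lower, beside 26.8%. DDX5 is among the genes lower in c2 in both comparisons, and its p-values are not independent of its selection. The share of members called was near that of all genes in each comparison. Their medians were 0.10, −0.07 and −0.12 in log2, beside −0.002, −0.001 and −0.011 over all genes.

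Erythroid markers moved in the same comparisons. HBZ (−1.04 ± 0.07), EPOR (−0.71 ± 0.09), HBG1, HBG2, HBE1 and TFRC were lower in c2 than in c1, and all of these but TFRC were also lower in c2 than in NT. GATA1 did not pass the test in either. Of the markers of other cell types, COL1A1 and PECAM1 were higher and EPCAM lower in c2 than in c1. The same held for c2 against NT, with 0.90 ± 0.26 for COL1A1, 0.82 ± 0.10 for PECAM1 and −1.08 ± 0.09 for EPCAM. In c1 against NT, EPCAM (−0.48 ± 0.09) and HBE1 (−0.28 ± 0.07) were lower. The part of these differences in the G3BP1, DDX5, DDX17 and DDX3X results was not tested.

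**Figure D4:**
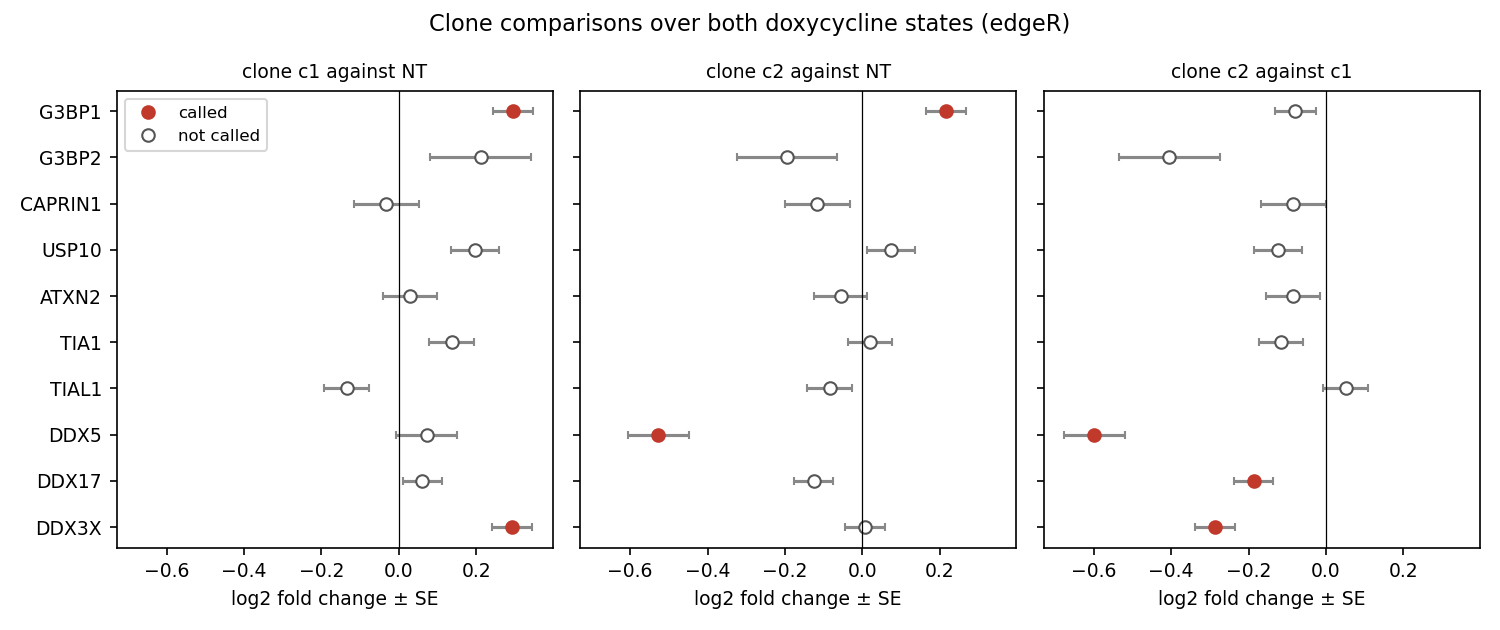
Log2 fold change ± SE of the 10 genes for c1 against NT, c2 against NT and c2 against c1 over both doxycycline states (2 libraries against 2), filled where edgeR's adjusted p is under 0.05. DDX5 is the leftmost point in both c2 panels at −0.53 and −0.60, and G3BP1 is called in both comparisons with NT. The DDX5 p-values are not independent of its selection.

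The transcripts behind the DDX5 level differed between clones. DDX5-215, which keeps intron 11, held 43.0% and 39.1% of DDX5 reads in uninduced and induced NT, 20.5% and 19.4% in c1, and 25.3% and 26.8% in c2. Both NT libraries were above all 4 others. The coding transcript DDX5-201 stood at 88.0 and 82.9 TPM in NT, at 158.4 and 106.5 in c1, and at 98.8 and 65.6 in c2. On this transcript c2 and NT overlapped, in contrast to the gene total. With doxycycline DDX5-201 stood at 94.2% of its uninduced TPM in NT, 67.2% in c1 and 66.4% in c2.

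DDX17 showed the same order. DDX17-201, which keeps intron 11, held 55.2% and 47.1% of DDX17 reads in NT, 36.2% and 31.2% in c1, and 40.0% and 39.2% in c2. As shares of TPM these transcripts were lower, at 30.0% and 25.4% in NT against 13.1% to 17.4% in the other clones for DDX5, and at 44.6% and 34.7% against 22.2% to 29.6% for DDX17, in the same order. The order was not particular to these genes. Retained-intron transcripts held 26.3% and 27.4% of TIAL1 reads in NT and 23.4% to 24.9% in the others. For ATXN2 they held 12.6% and 14.9% against 10.1% to 12.2%, and for TIA1 5.0% and 6.1% against 3.6% to 4.6%. In G3BP1, G3BP2, DDX3X and USP10 they held at most 0.6%. Over all genes, retained-intron transcripts held 4.04% and 4.17% of reads in NT and 3.62% to 3.92% in the others, so NT was the highest there as well. The shares were not tested, and the part of that general difference in them was not tested. The division of reads between such transcripts is Salmon's estimate.

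**Figure D5:**
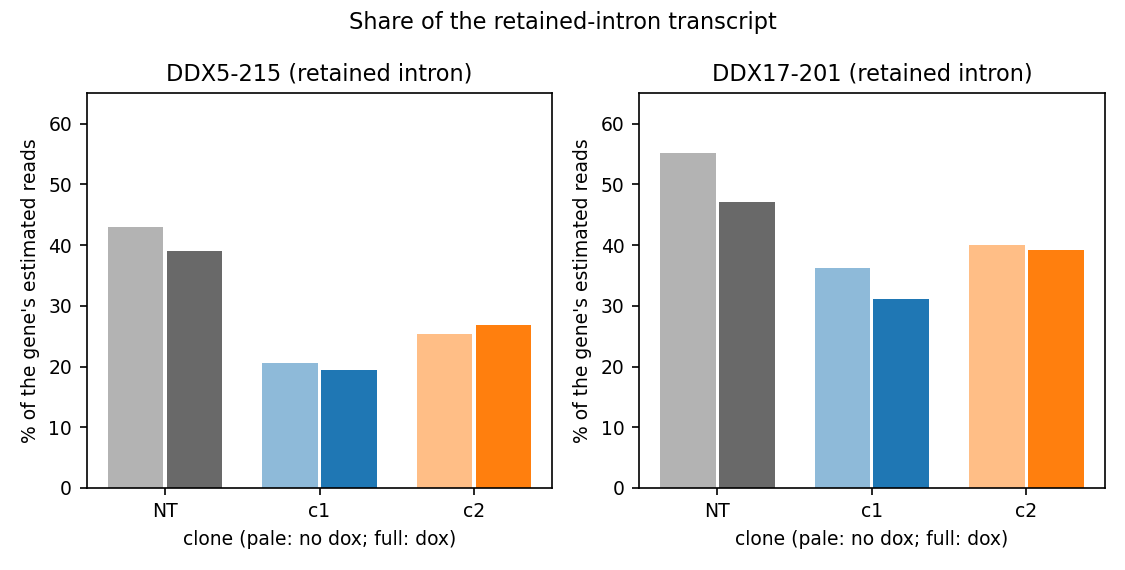
Percentage of the gene's estimated reads assigned to the transcript that keeps intron 11, for DDX5-215 and DDX17-201, 1 bar per library, grouped by clone, pale without and full with doxycycline. Both NT bars exceed all 4 bars of c1 and c2 in each panel.

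G3BP2 had at most 0.2% of its reads in retained-intron transcripts, so it could show no such shift. G3BP2-203 held 49.2% to 55.8% of its reads and G3BP2-201 40.5% to 46.1%. Both carry the CTCCATA site, and both were lower with doxycycline in c1 (68.1% and 73.9% of the uninduced TPM) and in c2 (69.6% and 76.0%) but not in NT (115.5% and 107.5%). The word was picked from the c2 response and G3BP2 for its lower induced level, so site and decrease are not independent. The G3BP1 transcripts G3BP1-201 and G3BP1-202 lay between 96.9% and 113.9% in all 3 clones.

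Promoters of the genes with the lower induced level are shown with that of G3BP1 for contrast, from 250 bases before to 50 after the start (RefSeq, GRCh38.p14), where 9 of the 10 genes had an entry and ATXN2 had none. Capitals mark, on either strand, the letters of the CCAAT box, the TATA box as TATAAA, the ETS family core as CGGAAG, the Sp1 box as GGGCGG and the cyclic AMP response half-site as TGACGT.
G3BP2 promoter, chr4:75673108-75673407, minus strand: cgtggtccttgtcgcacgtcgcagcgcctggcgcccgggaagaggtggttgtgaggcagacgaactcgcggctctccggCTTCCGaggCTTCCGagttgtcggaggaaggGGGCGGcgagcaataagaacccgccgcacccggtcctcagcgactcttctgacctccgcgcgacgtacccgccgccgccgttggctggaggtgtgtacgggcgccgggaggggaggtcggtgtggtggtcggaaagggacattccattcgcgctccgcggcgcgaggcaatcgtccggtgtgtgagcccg
CAPRIN1 promoter, chr11:34051481-34051780, plus strand: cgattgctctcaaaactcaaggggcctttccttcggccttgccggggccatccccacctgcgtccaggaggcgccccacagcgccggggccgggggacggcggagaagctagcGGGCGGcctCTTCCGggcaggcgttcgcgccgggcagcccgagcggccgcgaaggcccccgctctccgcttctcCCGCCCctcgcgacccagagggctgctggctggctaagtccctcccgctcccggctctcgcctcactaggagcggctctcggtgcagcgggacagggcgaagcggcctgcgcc
DDX5 promoter, chr17:64506589-64506888, minus strand: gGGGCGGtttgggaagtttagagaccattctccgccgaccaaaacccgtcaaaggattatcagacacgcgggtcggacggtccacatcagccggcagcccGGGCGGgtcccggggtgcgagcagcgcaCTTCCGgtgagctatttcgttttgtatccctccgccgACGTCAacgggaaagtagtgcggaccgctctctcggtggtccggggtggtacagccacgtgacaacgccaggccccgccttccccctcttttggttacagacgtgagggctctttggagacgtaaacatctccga
G3BP1 promoter, chr5:151771704-151772003, plus strand: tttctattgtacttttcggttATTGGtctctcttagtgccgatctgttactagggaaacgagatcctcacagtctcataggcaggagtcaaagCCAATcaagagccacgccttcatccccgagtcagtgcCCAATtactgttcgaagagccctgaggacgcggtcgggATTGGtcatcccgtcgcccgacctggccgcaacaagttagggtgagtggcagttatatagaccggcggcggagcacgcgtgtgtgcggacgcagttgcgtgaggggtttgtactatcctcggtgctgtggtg
CGGAAG, or its reverse complement CTTCCG, occurs in G3BP2, CAPRIN1, DDX5 and USP10, beside 19.9% of 27305 promoters of this length. GGGCGG occurs in 6 of the 9, beside 44.6%. CCAAT occurs in G3BP1 alone among the 9, in 4 places, beside 35.7%. TGACGT occurs in DDX5 and DDX17, beside 8.3%, and TATAAA in TIA1 alone, beside 12%. These are matches of letters in the window.

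Likeness of the log2 CPM pattern over the 6 libraries was ranked by root mean square distance among 11046 genes, which are the members and the genes with a range of at least 0.3 log2. G3BP2 and DDX5 were selected on values of these same libraries, so their likeness to each other is a description only. The nearest to G3BP2 were TMEM192 (0.056), ZDHHC20 (0.060) and LIPT1 (0.066), while CAPRIN1 ranked 148 and G3BP1 2659 (0.271). The nearest to DDX5 were HIST1H1C (0.103), GALNT5 (0.107) and AL049844.2 (0.118), with G3BP2 at rank 27 and DDX17 at 1946 (0.323). The nearest to TIA1 were TMEM41A (0.045), PAPOLA (0.045) and HSPA4 (0.048), with USP10 at rank 19 and TIAL1 at 1096. TIA1 itself ranges over 0.18, so other genes as flat as TIA1 were not ranked.

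Other genes of the pathway were counted in the same clone comparisons, beside 27.8%, 21.1% and 26.8% of all genes called in the 3 comparisons. Of 30 further granule assembly and coat genes, 7 were higher and 3 lower in c1 than in NT, 6 higher and 1 lower in c2 than in NT, and 3 higher and 3 lower in c2 than in c1. NUFIP2 was higher in both (0.94 ± 0.06 and 0.51 ± 0.06), and FMR1, the fragile X RNA-binding protein, in c1 (0.64 ± 0.09). Of 11 prion-like and FET RNA-binding genes, 1 was higher and 0 lower in c1 than in NT, 1 higher and 1 lower in c2 than in NT, and 0 higher and 2 lower in c2 than in c1. MATR3 was higher in c1 (0.46 ± 0.05) and c2 (0.28 ± 0.05) than in NT.

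Again beside 27.8%, 21.1% and 26.8% of all genes called in the 3 comparisons, the calls in the next lists were as follows. Of 18 eIF2α kinase and translation initiation genes, 3 were higher and 1 lower in c1 than in NT, 0 were called in c2 against NT, and 2 were higher and 4 lower in c2 than in c1. The interferon-induced kinase gene EIF2AK2 was higher in c1 than in NT (0.52 ± 0.07) and the amino acid sensing kinase gene EIF2AK4 lower (−0.48 ± 0.10). Of 13 P-body and decay genes, 2 were higher and 1 lower in c1 than in NT, 2 higher and 0 lower in c2 than in NT, and 1 higher and 0 lower in c2 than in c1. EDC3 was higher in c2 than in c1 (0.39 ± 0.07). Of 9 granule clearance genes, 1 was higher and 2 lower in c1 than in NT, 1 higher and 0 lower in c2 than in NT, and 2 higher and 1 lower in c2 than in c1. USP13 was lower in c1 than in NT (−1.02 ± 0.18). HSPB8, the 1 higher gene in both comparisons with NT, lay under 1 CPM in every library.

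For the helicases and the DDX5 partners, the all-gene shares were the same 27.8%, 21.1% and 26.8%. Of 31 other DEAD-box and DExH helicase genes, 7 were higher and 3 lower in c1 than in NT, 0 higher and 5 lower in c2 than in NT, and 1 higher and 3 lower in c2 than in c1. EIF4A3, the exon junction helicase, was lower in c2 than in c1 (−0.53 ± 0.07). Of 12 measured partners of DDX5 and DDX17, 1 was higher and 4 lower in c1 than in NT, 0 higher and 1 lower in c2 than in NT, and 2 higher and 0 lower in c2 than in c1. SMAD3 was lower in c1 than in NT (−0.79 ± 0.07), and DROSHA, the microRNA-processing nuclease, higher in c2 than in c1 (0.50 ± 0.08).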

How the data were processed

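Per the submitters' processing notes, the authors quantified reads with Salmon 1.5.2 and used GRCh37 (hg19). In the deposited tables each transcript has an estimated count (expected count) and a TPM value, per the file headers. Neither transcript annotation nor read trimming nor strand was stated (not given in the sources used here), so overlapping and antisense genes, and the division of reads between similar transcripts, are uncertain. Libraries were made from total RNA with the NEBNext Ultra RNA kit, per the labels' protocols. The second CDAN1 clone is named c2 as in its title, while its deposited data are named with another clone number.

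Of 167268 transcripts, 151039 (90.3%) matched GENCODE 29, and counts were summed to genes and rounded. The rest, 6.23% to 6.5% of a library's reads, entered neither library sizes nor tests. GENCODE 29 served for names and for coordinates on GRCh38. A low-count filter (filterByExpr, smallest group 2) left 14075 genes. CPM were scaled by TMM, with a prior count of 2 for log2 values. Counting intervals are exact Clopper-Pearson intervals at 95%.

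The edgeR 4.0.16 quasi-likelihood test (R 4.3.3, two-sided, Benjamini-Hochberg over all genes, threshold 0.05) was fitted to all 6 libraries. Clone comparisons had clone and doxycycline terms. DESeq2 1.42.0, limma 3.58.1 (voom), RLE size factors, no filter, a transcript length offset, unmatched transcripts kept, other covariates and leaving out each library were alternatives. Each clone gave both states, so the clone pairs the samples: deviations from the state means correlated across genes, with r = 0.608 within NT, 0.679 within c1 and 0.741 within c2. On 3 sets of simulated data with 200 changed genes each, the test of c2 against c1 found 10.7% of genes changed 1.25-fold, 54.7% at 1.5-fold and 66.7% at 2-fold, with 12% of its calls false. The test of knockdown against all controls found 0%, 6.0% and 35.3%, with 8.7% false. Apart from the changed genes, the simulated libraries shared 1 mean per gene, with no clone or doxycycline differences. The real test of c2 against c1 called 26.8% of genes, so these rates need not hold for the real data.

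The members and all lists were chosen with earlier results of these data known. From each other list, called genes among the 3 of largest fold change over the clone comparisons were eligible to be named. Transcripts with at least 5% of a member's reads were described. Likeness was ranked among genes with a range of at least 0.3 log2, members exempt. Some cell type markers are not reported here.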

Additional observations from a re-analysis of the deposited data

Results flagged for a closer look

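Among the 4 control libraries, uninduced c1 stood apart on the high side for 4 of the 10 genes. The gap to the next control took 0.833 of the controls' range for G3BP2, 0.921 for TIA1, 0.900 for CAPRIN1 and 0.976 for DDX3X. The controls come from 3 clones, so this compares clones as well as libraries, G3BP2 was selected on a contrast that a high uninduced c1 feeds, so its value is no independent finding, and chance flags about 1 in 20 groups. Of all tested genes, 8.3% had a library standing apart by the same measure in either direction, and uninduced c1 was the high one for 2.5%.

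For 4 genes the responses of both CDAN1 shRNA clones had the opposite sign to the NT response. The share of all genes with this pattern was not counted, so the number of genes is a description and no finding about the set. For G3BP1, ATXN2 and USP10 not every sign was fixed, as a 95% counting interval reached both sides of no change. This held for G3BP1 in c1 (98.4% to 103.6% of the uninduced level) and USP10 in NT (97.9% to 105.5%). It also held for ATXN2 in NT (90.0% to 101.1%) and in c1 (98.6% to 110.1%). The mean response of c1 and c2 minus that of NT was −0.563 in log2 for G3BP2, 0.1 for G3BP1, 0.164 for ATXN2 and −0.153 for USP10. These differences were not tested, since they share libraries with the contrast that chose the set. On the TPM scale the c2 response of G3BP1 was −0.03 in place of 0.06.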

How the results depend on the processing

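The number of genes called in the clone comparisons depended on the settings. With a transcript length offset, 2370 genes were called for c1 against NT, 1792 for c2 against NT and 2307 for c2 against c1, in place of 3918, 2964 and 3766. With unmatched transcripts kept these were 2021, 1164 and 1825, and with a knockdown term 2519 and 1915 for the first 2 comparisons. Leaving out 1 library gave 2319 to 3245, 1022 to 3502 and 1565 to 3962. For knockdown against all controls, DESeq2 called 22 genes and the replicate block 6. For induced against uninduced clones these were 2 and 141. The 141 became 0 when the replicate block was combined with the length offset or with unmatched transcripts, 2 fits chosen after seeing the data. For the response of c1 and c2 set against that of NT, DESeq2 called 5 genes and the replicate block 19. That difference has no fit without an NT library. The cause of these shifts was not tested.

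Some untested or uncalled values changed sign. With the length offset, TIA1 was −0.085 for c1 and −0.124 for c2 against NT, and ATXN2 0.072 for c2. With the knockdown term, CAPRIN1 was 0.126 and ATXN2 −0.052 for c1, and G3BP2 0.096 and CAPRIN1 0.044 for c2. In that fit G3BP2 passed the test for c1 against NT (0.498, edgeR adjusted p = 0.00437). Leaving out 1 library gave, for c1 against NT, −0.067 to 0.498 for G3BP2, −0.070 to 0.214 for DDX5, −0.191 to 0.126 for CAPRIN1 and −0.052 to 0.110 for ATXN2. For c2 against NT it gave −0.471 to 0.096 for G3BP2, −0.274 to 0.044 for CAPRIN1, −0.137 to 0.023 for ATXN2, −0.022 to 0.061 for TIA1, −0.006 to 0.151 for USP10 and −0.024 to 0.034 for DDX3X. For c2 against c1 it gave −0.202 to 0.039 for CAPRIN1 and −0.006 to 0.105 for TIAL1. No called member changed direction in any of these fits. Calls lost beyond those named above were G3BP1 with a knockdown term (edgeR adjusted p = 0.0581 for c1 and 0.207 for c2 against NT), and, with unmatched transcripts kept, G3BP1 (0.0750) and DDX5 (0.0558) for c2 against NT and DDX17 (0.0927) for c2 against c1. With the length offset DDX17 was lost as well (edgeR adjusted p = 0.0556). On log2 TPM plus 0.1, 25 of 30 responses kept their sign, with shifts of up to 0.174. Of the 30, 12 stayed within the counting interval of their CPM value. The limits are 1 library per clone and state and 2 residual degrees of freedom.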
